A study of Capra hircus with 6 samples.

Results

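A set of 9 genes of glucocorticoid signalling was followed in goat medio-basal hypothalamus, the base of the brain around the arcuate nucleus and median eminence: the receptors NR3C1 and NR3C2, the receptor co-chaperones FKBP5 and FKBP4, the cortisol-converting enzymes HSD11B1 and HSD11B2, and the glucocorticoid-responsive genes TSC22D3, SGK1 and ZBTB16. They were taken by symbol, and all 9 were found among the 28907 rows of the deposited table. The study used 18 adult Alpine goats, and 5 goats in the January follicular phase, the part of the ovarian cycle that leads up to ovulation, are set here against 8 goats in mid-May anestrus, when ovarian cycles have stopped for the season. Season and ovarian state therefore differ together. RNA of each group was mixed into 2 random equimolar pools, and each pool gave 1 library. How many goats entered a pool, and whether any entered both, is not given in the sources used here. The p-values therefore measure the spread between pools, not between goats. The test draws the spread of each gene towards that of other genes, so the gene's own 2 pools per group are not its only source. The 2 luteal-phase libraries of the series were not analysed here.

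Cortisol acts on cells through a pair of nuclear receptors. The mineralocorticoid receptor, NR3C2, binds it tightly, and the glucocorticoid receptor, NR3C1, is filled mainly at high hormone levels. Both wait in the cytoplasm in a complex with HSP90, in which FKBP5 lowers and FKBP4 favours hormone binding and transport to the nucleus. Within a cell, HSD11B1 regenerates cortisol from inactive cortisone, and HSD11B2 does the reverse. FKBP5 is itself a well-known glucocorticoid-induced gene, as are TSC22D3, SGK1 and ZBTB16. In the hypothalamus, glucocorticoids restrain the corticotropic axis.

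The 4 libraries held between 14553821 and 25292678 counts. A gene differed between pools of the same group by a median of 1.17-fold in the follicular phase and 1.24-fold in anestrus. Markers of neurons (9 of 10 entries matched), astrocytes (8 of 8) and oligodendrocytes (9 of 9) were all detected, as was RAX, a transcription factor of tanycytes. Pituitary markers were also present (9 of 10 matched). The tissue was sequenced in bulk, where fewer cells of a type and less RNA per cell cannot be told apart.

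FKBP5 and HSD11B1 lay higher in anestrus in both pools, by about the same proportion, and SGK1 lay higher in the follicular phase. NR3C1, FKBP4, TSC22D3 and ZBTB16 overlapped between the groups. None of these differences passed. Levels are given in CPM, the count of a gene relative to the library total after TMM scaling. In edgeR's quasi-likelihood test, 0 of the 8 members tested had an adjusted p under 0.05, where 34 of 16756 genes, or 0.203%, did. At an unadjusted p under 0.05 there were 3 members, FKBP5, HSD11B1 and SGK1, beside 8.55% of all genes. DESeq2's Wald test and limma-voom also called 0 of the 8. HSD11B2 was not tested because its counts were too low. Each log2 fold change below is the follicular level minus the anestrus level and is given ± its standard error, so genes higher in anestrus have negative values.

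**Figure D1:**
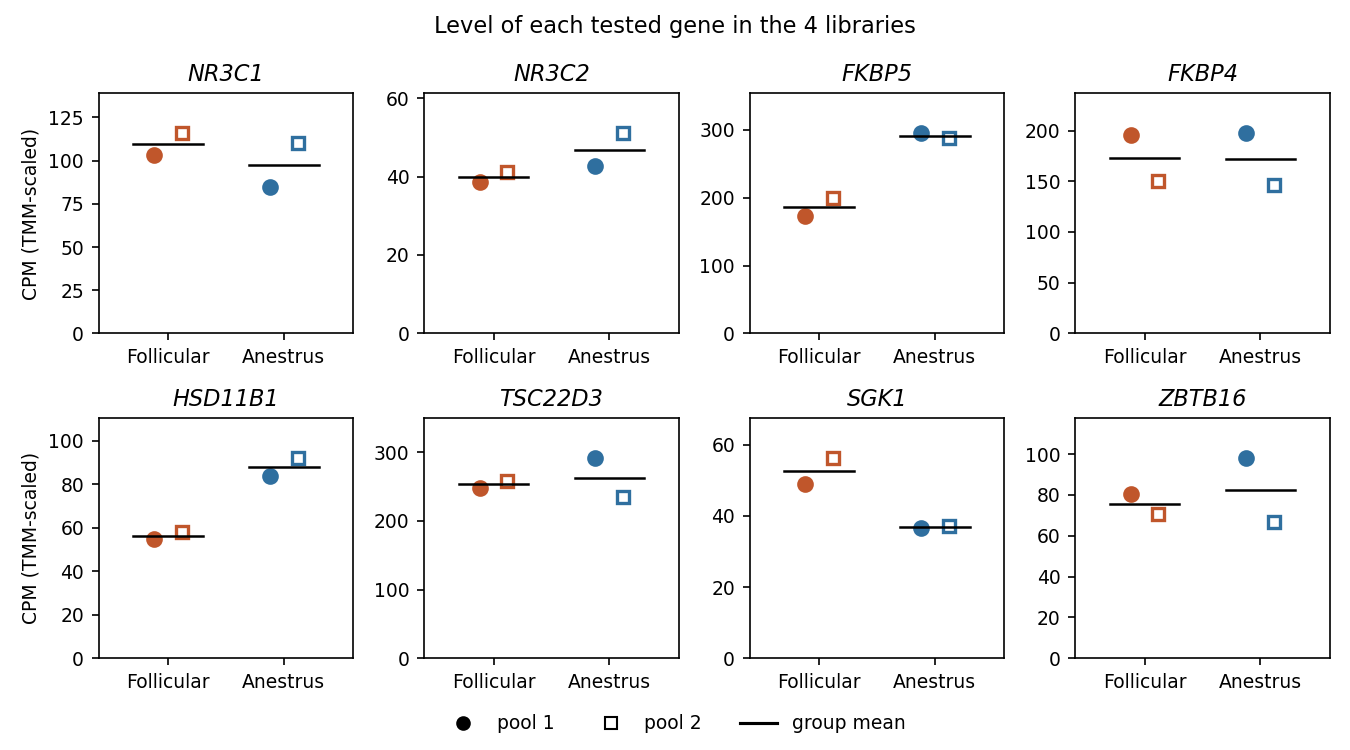
Level of the 8 tested genes in each library, in CPM, on axes that start at 0. Filled circles are pool 1, open squares pool 2 and lines the group means. Both anestrus pools of FKBP5 (295 and 289 CPM) and HSD11B1 (83.6 and 91.9 CPM) lie above both follicular pools, and both follicular pools of SGK1 (49.0 and 56.2 CPM) lie above both anestrus pools.

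NR3C1, the glucocorticoid receptor, had 103 and 116 CPM in follicular pools 1 and 2, against 85.0 and 110 CPM in anestrus pools 1 and 2. The groups overlapped, since anestrus pool 2 lay between the follicular pools and only anestrus pool 1 was low. Its mean was 109 ± 8.81 CPM over the follicular pools and 97.5 ± 17.7 CPM over the anestrus pools (SD, n = 2 pools each), and its log2 fold change was 0.17 ± 0.18 with an adjusted p of 0.885 in edgeR. Without anestrus pool 1 that log2 fold change was -0.0096, so its sign rests on that pool.

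NR3C2, the mineralocorticoid receptor, had 38.7 and 41.3 CPM in the follicular pools, against 42.8 and 51.0 CPM in the anestrus pools. Both anestrus pools were the higher ones, although anestrus pool 1 exceeded follicular pool 2 by only 1.04-fold. For NR3C2 the log2 fold change was -0.23 ± 0.19, with an adjusted p of 0.833 in edgeR. The 95% intervals of the log2 fold change, not adjusted for the number of genes, ran from -0.23 to 0.56 for NR3C1 and from -0.66 to 0.20 for NR3C2.

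The balance of the receptors can be read within a library, where no scaling between libraries enters. The ratio of NR3C1 counts to NR3C2 counts was 2.67 and 2.80 in the follicular pools, against 1.99 and 2.16 in the anestrus pools. All of the follicular ratios were thus above all of the anestrus ones, by a mean of 0.40 on the log2 scale. Leaving out 1 pool at a time left that difference between 0.34 and 0.46. These are ratios of counts, not of molecules, because transcript length was not corrected for. No test was made of them: with 2 pools against 2, an exact permutation test cannot give a p below 0.333.

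Of the co-chaperones, FKBP5 had the smallest p of the 8 genes. It had 173 and 200 CPM in follicular pools 1 and 2, against 295 and 289 CPM in anestrus pools 1 and 2. The anestrus pools were within 1.02-fold of each other, and each exceeded each follicular pool, by 1.44-fold to 1.71-fold over the 4 pairs of pools. The mean was 187 ± 19.5 CPM over the follicular pools and 292 ± 4.31 CPM over the anestrus pools, a 1.56-fold higher level in anestrus. This is a log2 fold change of -0.65 ± 0.16, with an unadjusted p of 0.00198 and an adjusted p of 0.235 in edgeR, which ranked FKBP5 at 140 of 16756 genes. Its 95% interval ran from -0.997 to -0.295.

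FKBP5 passed in 3 of 13 alternative analyses. Its adjusted p was 0.0437 with no filter on low counts, where 1.38% of genes passed. It was 0.0143 without anestrus pool 1, where 4.72% passed, and 0.0298 without anestrus pool 2, where 3.39% passed. Leaving out an anestrus pool removes the spread within that group, so those fits assume that the remaining pool varies as the follicular pools do. The adjusted p was 0.0926 in DESeq2's Wald test, 0.201 in limma-voom and 0.9997 without follicular pool 1. Over the 13 alternatives the log2 fold change stayed between -0.76 and -0.53.

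FKBP4 did not separate the groups. It had 196 and 150 CPM in follicular pools 1 and 2, against 197 and 147 CPM in anestrus pools 1 and 2. In both groups pool 1 was the high one, by 1.30-fold in the follicular phase and 1.34-fold in anestrus, and the means were 173 ± 32.3 CPM over the follicular pools and 172 ± 35.6 CPM over the anestrus pools. FKBP4 thus had a log2 fold change of 0.01 ± 0.20, with a 95% interval from -0.43 to 0.45 and an adjusted p of 0.994 in edgeR. The ratio of FKBP5 counts to FKBP4 counts was 0.883 and 1.34 in the follicular pools, against 1.496 and 1.97 in the anestrus pools. The groups did not overlap in that ratio, although follicular pool 2 and anestrus pool 1 lay close to each other. The mean difference in log2 ratio was -0.66, and between -0.96 and -0.36 when 1 pool was left out. Since FKBP4 was level between the groups, this nearly repeats the log2 fold change of FKBP5 alone (-0.65). This ratio was not tested either.

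**Figure D2:**
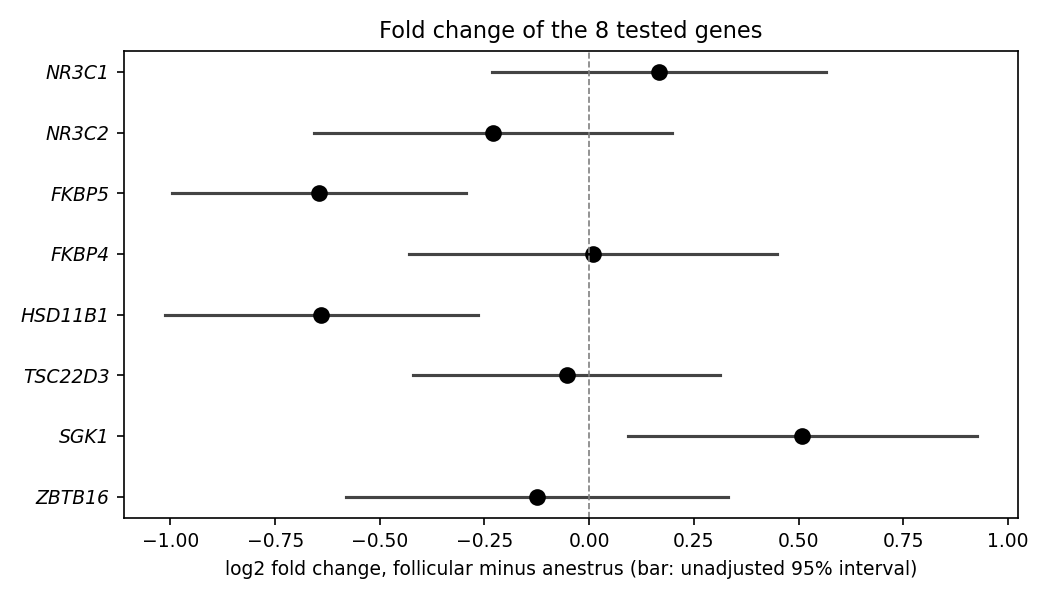
Log2 fold change, follicular minus anestrus, of the 8 tested genes, with bars for the 95% interval, which is not adjusted for the number of genes tested. The intervals of FKBP5 (-0.997 to -0.295) and HSD11B1 (-1.01 to -0.27) lie below 0 and that of SGK1 (0.09 to 0.93) above it, and the other 5 include 0.

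The enzymes of cortisol conversion were measured unequally. HSD11B1 had 54.7 and 58.0 CPM in the follicular pools, against 83.6 and 91.9 CPM in the anestrus pools. The pools of each group lay close together, and each anestrus pool exceeded each follicular pool by 1.44-fold to 1.68-fold. The mean of HSD11B1 was 56.3 ± 2.35 CPM over the follicular pools and 87.8 ± 5.92 CPM over the anestrus pools, 1.56-fold higher in anestrus. In edgeR it had a log2 fold change of -0.64 ± 0.17, with an unadjusted p of 0.00317 and an adjusted p of 0.266, at rank 199 of 16756 genes.

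HSD11B1 passed in 1 of 13 alternatives, with an adjusted p of 0.0156 without anestrus pool 1. It was 0.0798 with no filter on low counts and 0.159 in DESeq2's Wald test. The highest adjusted p was 0.9997, without follicular pool 1. Its log2 fold change ranged from -0.71 to -0.53. H6PD, the enzyme that supplies HSD11B1 with its cofactor, had 65.6 and 59.2 CPM in the follicular pools, against 58.0 and 67.3 CPM in the anestrus pools, and its groups overlapped. H6PD was named after its value was seen.

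HSD11B2, which inactivates cortisol, was at the detection limit. It had 1 and 3 counts in the follicular pools, against 3 and 0 counts in the anestrus pools. A count of 0 in anestrus pool 2 allows a level of up to 0.167 CPM (3 counts of that library, counting error only). Levels this low allow no fold change between the groups, and no ratio of the enzymes was formed.

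SGK1, a kinase that both corticosteroid receptors induce and that regulates ion transport, did not overlap between the groups. Among the other glucocorticoid-induced members, FKBP5 did not overlap either but was higher in anestrus, while TSC22D3 and ZBTB16 overlapped. SGK1 had 49.0 and 56.2 CPM in the follicular pools, against 36.7 and 37.3 CPM in the anestrus pools. Both follicular pools were higher, by 1.32-fold to 1.53-fold over the pairs of pools. The mean of SGK1 was 52.6 ± 5.12 CPM over the follicular pools and 37.0 ± 0.417 CPM over the anestrus pools, a 1.42-fold higher level in the follicular phase. SGK1 had a log2 fold change of 0.51 ± 0.19, with an unadjusted p of 0.0213 and an adjusted p of 0.457 in edgeR. It passed in 0 of 13 alternatives, with adjusted p from 0.183 to 0.9997 and log2 fold changes from 0.41 to 0.62.

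TSC22D3, which encodes the leucine zipper protein that mediates part of the anti-inflammatory action of glucocorticoids, had 248 and 258 CPM in the follicular pools, against 291 and 234 CPM in the anestrus pools. The anestrus pools stood on either side of the follicular ones. Its log2 fold change was -0.05 ± 0.17, with a 95% interval from -0.42 to 0.31 and an adjusted p of 0.969 in edgeR. Without anestrus pool 1 the sign turned, at 0.11.

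ZBTB16, a zinc finger transcription factor, had 80.2 and 70.7 CPM in the follicular pools, against 98.0 and 66.7 CPM in the anestrus pools. The anestrus pools differed by 1.47-fold and again enclosed the follicular ones. ZBTB16 had a log2 fold change of -0.12 ± 0.21, with a 95% interval from -0.58 to 0.33 and an adjusted p of 0.929 in edgeR. Its sign also turned without anestrus pool 1, at 0.18. FKBP5, TSC22D3, SGK1 and ZBTB16, which glucocorticoids are all known to induce, did not share a sign in these libraries, where SGK1 had a positive log2 fold change and the other 3 negative ones.

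Over the set, 4 of the 8 tested members had groups without overlap, 1 higher in the follicular phase (SGK1) and 3 higher in anestrus (NR3C2, FKBP5 and HSD11B1). Among all genes the share was 38.3%, with 17.6% higher in the follicular phase and 20.7% higher in anestrus. Of the 8, 3 had a positive log2 fold change, beside 49.9% of all genes. The median log2 fold change was -0.09 over the 8 members and -0.00067 over all genes. These shares and medians are descriptions of a set of 8 and carry no test.

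**Figure D3:**
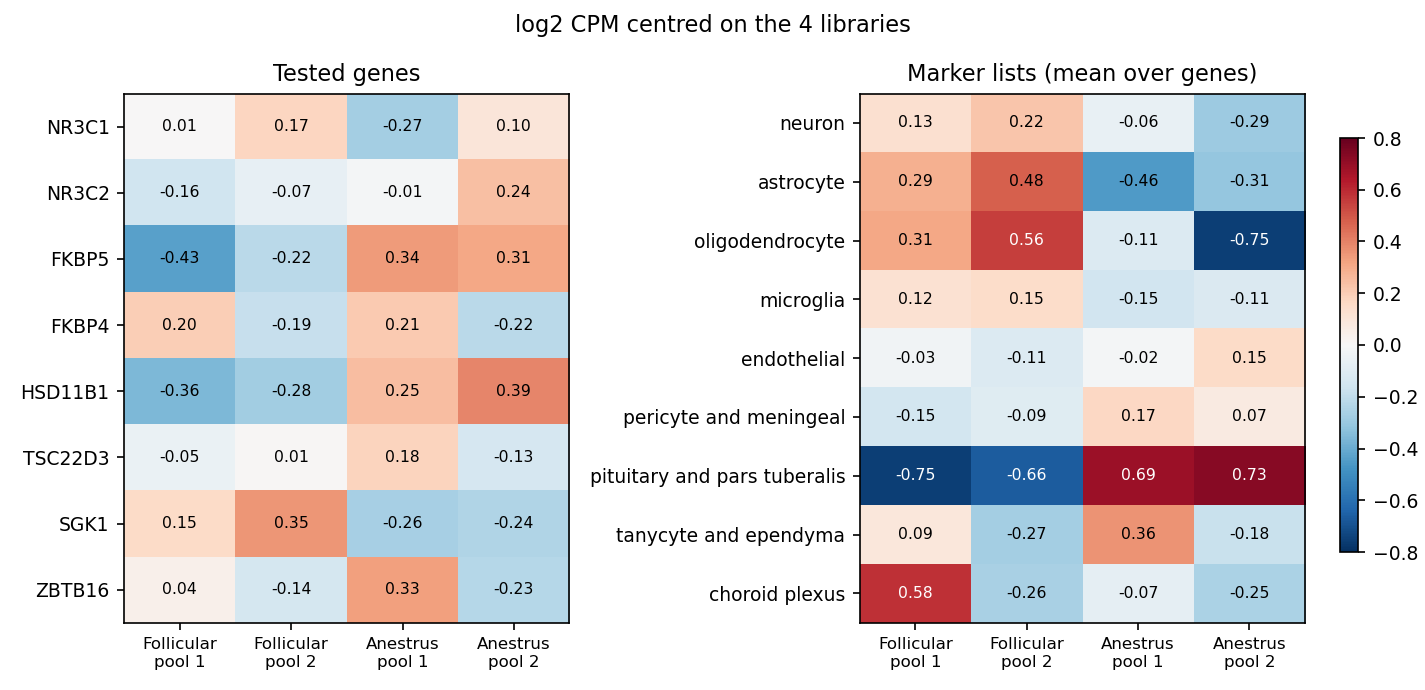
Log2 CPM of the 8 tested genes (left) and mean log2 CPM of marker lists (right) in each library, centred on the 4 libraries, on 1 colour scale. FKBP5 and HSD11B1 are below 0 in both follicular pools and above 0 in both anestrus pools. So are the means of the pituitary and pars tuberalis list and of the pericyte and meningeal list. SGK1 and the astrocyte, neuron, oligodendrocyte and microglia lists run the other way.

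Marker genes of several cell types were not level between the groups. The summed level of pericyte and meningeal markers (7 of 7 matched) was 1010 and 1130 CPM in the follicular pools, against 1516 and 1381 CPM in the anestrus pools. For the pituitary and pars tuberalis (9 of 10 matched) it was 7068 and 5416 CPM in the follicular pools, against 15502 and 11929 CPM in the anestrus pools. Both sums were higher in anestrus, the direction of FKBP5 and HSD11B1, but not every gene in them was. In the pericyte and meningeal list 3 genes had a positive and 4 a negative log2 fold change, with a median of -0.03. The matrix genes DCN (-0.82 ± 0.16), LUM (-0.60 ± 0.16) and COL1A2 (-0.49 ± 0.18) did not overlap between the groups and were higher in anestrus. PDGFRB (0.13 ± 0.18), ACTA2 (0.10 ± 0.18), RGS5 (0.04 ± 0.23) and COL1A1 (-0.03 ± 0.20) overlapped. In the pituitary and pars tuberalis list 2 of the 8 genes tested, CHGA and LHB, had a positive log2 fold change and 6 a negative one. The largest part of the sum was CGA, at 5232 and 4295 CPM in the follicular pools, against 13142 and 10309 CPM in the anestrus pools. TSHB had 4.80 and 6.80 CPM in the follicular pools, against 1200 and 811 CPM in the anestrus pools. CGA and TSHB passed in edgeR (adjusted p = 0.0206 and 6.66e-06), while GH1, LHB and PITX1 overlapped between the groups. Genes of these lists were named after their values were seen. Endothelial markers (8 of 8 matched) summed to 250.03 and 253 CPM in the follicular pools, against 266 and 345 CPM in the anestrus pools. Of these 8 genes 5 had a positive log2 fold change, with a median of 0.03. SLCO1C1, a transporter, accounted for 31.1 and 32.8 CPM of the sum in the follicular pools, against 79.3 and 102 CPM in the anestrus pools. SLCO1C1 passed in edgeR (adjusted p = 0.0154).

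Other marker sums went with SGK1. Oligodendrocyte markers (9 of 9 matched) summed to 3380 and 4528 CPM in the follicular pools, against 2840 and 1820 CPM in the anestrus pools. Astrocyte markers (8 of 8 matched) summed to 9598 and 10690 CPM in the follicular pools, against 5921 and 6157 CPM in the anestrus pools. Neuron markers (9 of 10 matched) gave 4031 and 4341 CPM in the follicular pools, against 3549 and 3113 CPM in the anestrus pools. Microglia markers (8 of 8 matched) gave 462 and 490 CPM in the follicular pools, against 382 and 398 CPM in the anestrus pools. No matched marker of these 7 lists was at 0 in all libraries. The part that cell makeup has in the levels of FKBP5, HSD11B1 and SGK1 was not tested.

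Tanycyte and ependyma markers (7 of 7 matched) summed to 1057 and 960 CPM in the follicular pools, against 1342 and 1207 CPM in the anestrus pools. Of these 7 genes 3 had a positive and 4 a negative log2 fold change. DIO2, the deiodinase that activates thyroid hormone, had 115 and 105 CPM in the follicular pools, against 230 and 276 CPM in the anestrus pools. DIO2 passed in edgeR (adjusted p = 0.0226). VIM was also higher in both anestrus pools but did not pass. The ependymal genes CCDC153 and FOXJ1 were higher in both follicular pools. The mean log2 level of the list overlapped between the groups. Choroid plexus markers (6 of 6 matched) summed to 373 CPM in follicular pool 1 and to 125 CPM in follicular pool 2, against 161 and 144 CPM in the anestrus pools. TTR, named after its values were seen, held 252 and 27.4 CPM of these sums in follicular pools 1 and 2. In the anestrus pools TTR held 61.1 and 17.7 CPM. The high sum of follicular pool 1 was thus mostly that of TTR. Without follicular pool 1, FKBP5, HSD11B1 and SGK1 had log2 fold changes of -0.53, -0.58 and 0.62. The part that choroid plexus tissue has in these levels was not tested. Blood cell markers (4 of 6 matched) summed to 21.7 and 25.2 CPM in the follicular pools, against 20.1 and 26.6 CPM in the anestrus pools.

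The genes whose pattern over the 4 libraries was nearest to that of FKBP5, by Euclidean distance of centred log2 CPM, were TPX2 (0.029), a protein of the mitotic spindle, LUM (0.050), a proteoglycan of connective tissue, C22H3orf67 (0.055), EBP (0.061), a sterol isomerase of cholesterol synthesis, and TMEM131 (0.064). LUM had 84.9 and 97.0 CPM in the follicular pools, against 140 and 136 CPM in the anestrus pools. TPX2 was low throughout, at 4.64 and 5.35 CPM in the follicular pools, against 7.78 and 7.77 CPM in the anestrus pools. None of the 5 passed, with adjusted p from 0.257 to 0.639 in edgeR. A likeness over 4 libraries is a description only.

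Other glucocorticoid-induced genes were read from a list of 30 entries, of which 26 were tested. None passed in edgeR, 16 had a positive and 10 a negative log2 fold change, and the median was 0.03. Groups did not overlap for 7 of the 26 that were higher in the follicular phase, beside 17.6% of all genes. The same held for 3 of the 26 that were higher in anestrus, beside 20.7% of all genes. At an unadjusted p under 0.05 in edgeR there were 4 of the 26, beside 8.55% of all genes. These were NDRG2, TXNIP, RHOB and CRISPLD2, the last pair named after their values were seen. NDRG2, a gene of astrocytes, had 793 and 770 CPM in the follicular pools, against 593 and 511 CPM in the anestrus pools, a log2 fold change of 0.50 ± 0.16 with an adjusted p of 0.346 in edgeR. TXNIP, an inhibitor of thioredoxin and of glucose uptake, had 442 and 489 CPM in the follicular pools, against 631 and 661 CPM in the anestrus pools, a log2 fold change of -0.47 ± 0.15 with an adjusted p of 0.374 in edgeR.

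PDK4, KLF9 and PER1 are 3 of the well-known targets in this list, not all of them. Their log2 fold changes were 0.00038 ± 0.16, 0.03 ± 0.17 and 0.26 ± 0.34, in that order. PDK4, a kinase that restrains pyruvate dehydrogenase, had 171 and 162 CPM in the follicular pools, against 159 and 175 CPM in the anestrus pools. KLF9, a transcription factor, had 114 and 127 CPM in the follicular pools, against 108 and 128 CPM in the anestrus pools. PER1, a clock gene that glucocorticoids induce directly, varied widely between pools, at 258 and 120 CPM in the follicular phase, against 135 and 181 CPM in anestrus. These 3 genes were also named after their values were seen.

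Of 15 chaperones and co-chaperones of steroid receptors, all tested, none passed, 5 had a positive and 10 a negative log2 fold change, and the median was -0.01. HSP90AA1, which encodes an HSP90 that holds the receptors, had 3059 and 3532 CPM in the follicular pools, against 3307 and 2964 CPM in the anestrus pools. It was named after its value was seen. BAG1, a cofactor of HSP70, had a log2 fold change of -0.29 ± 0.17 and PPP5C, a phosphatase bound to HSP90, of 0.40 ± 0.27. None of the 15 had an unadjusted p under 0.05 in edgeR, beside 8.55% of all genes.

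Of 11 coregulators of steroid receptors, all tested, none passed, 3 had a positive and 8 a negative log2 fold change, and the median was -0.15. NCOA3 alone of the 11 had an unadjusted p under 0.05 in edgeR, beside 8.55% of all genes. NCOA3, a coactivator of nuclear receptors, had 68.0 and 69.5 CPM in the follicular pools, against 93.7 and 105 CPM in the anestrus pools. Both anestrus pools were higher, at a log2 fold change of -0.53 ± 0.17 (edgeR, adjusted p = 0.342). NCOA1, of the same coactivator family, had 101 and 108 CPM in the follicular pools, against 123 and 129 CPM in the anestrus pools, a log2 fold change of -0.27 ± 0.16.

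Of 13 genes of the corticotropic axis, 8 were tested, 4 had a positive and 4 a negative log2 fold change, and 1 passed. In edgeR, 2 of the 8, PCSK1 and CRH, had an unadjusted p under 0.05, beside 8.55% of all genes. PCSK1, the convertase that cuts adrenocorticotropin from its precursor, had 251 and 213 CPM in the follicular pools, against 540 and 605 CPM in the anestrus pools. It fell in the follicular phase relative to anestrus, with a log2 fold change of -1.30 ± 0.17 (edgeR, adjusted p = 0.0154). The call was lost without follicular pool 1, where 1 follicular pool was left, although the log2 fold change there was -1.41. CRH, the releasing hormone that glucocorticoids suppress in the paraventricular nucleus, was low at 1.69 and 1.92 CPM in the follicular pools, against 0.631 and 0.444 CPM in the anestrus pools. Its log2 fold change was 1.75 ± 0.56 with an adjusted p of 0.366 in edgeR. AVP, the vasopressin gene, had 34.0 and 16.6 CPM in the follicular pools, against 12.3 and 1.72 CPM in the anestrus pools. POMC, which encodes the precursor that PCSK1 cuts, had 170 and 37.8 CPM in the follicular pools, against 260 and 92.0 CPM in the anestrus pools. The POMC groups overlapped. AVP and POMC were named after their values were seen. MC2R and AVPR1B, receptors of the pituitary-adrenal axis, had 0 counts in all 4 libraries.

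Of 15 genes of mineralocorticoid and SGK1 action, 13 were tested and 1 passed. Among the 13, 9 had a positive and 4 a negative log2 fold change, and the median was 0.09. In edgeR, 5 of the 13 had an unadjusted p under 0.05, beside 8.55% of all genes. SCNN1B, the beta subunit of the epithelial sodium channel that aldosterone and SGK1 regulate in kidney, had 13.5 and 11.0 CPM in the follicular pools, against 43.5 and 29.9 CPM in the anestrus pools. It fell in the follicular phase relative to anestrus, at a log2 fold change of -1.58 ± 0.26 (edgeR, adjusted p = 0.0492), and was 2.98-fold higher in anestrus. The call was lost in limma-voom (adjusted p = 0.0652) and in edgeR without robust estimation (0.0542). It was also lost without follicular pool 1, where 1 follicular pool was left, although the log2 fold change there was -1.72. The other channel subunits, SCNN1A and SCNN1G, named after their values were seen, did not pass and had log2 fold changes of 0.39 ± 0.51 and -0.14 ± 0.39. SLC12A2, a sodium-potassium-chloride cotransporter, had 81.3 and 86.2 CPM in the follicular pools, against 41.0 and 57.1 CPM in the anestrus pools, at a log2 fold change of 0.77 ± 0.20 (edgeR, adjusted p = 0.25).

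**Figure D4:**
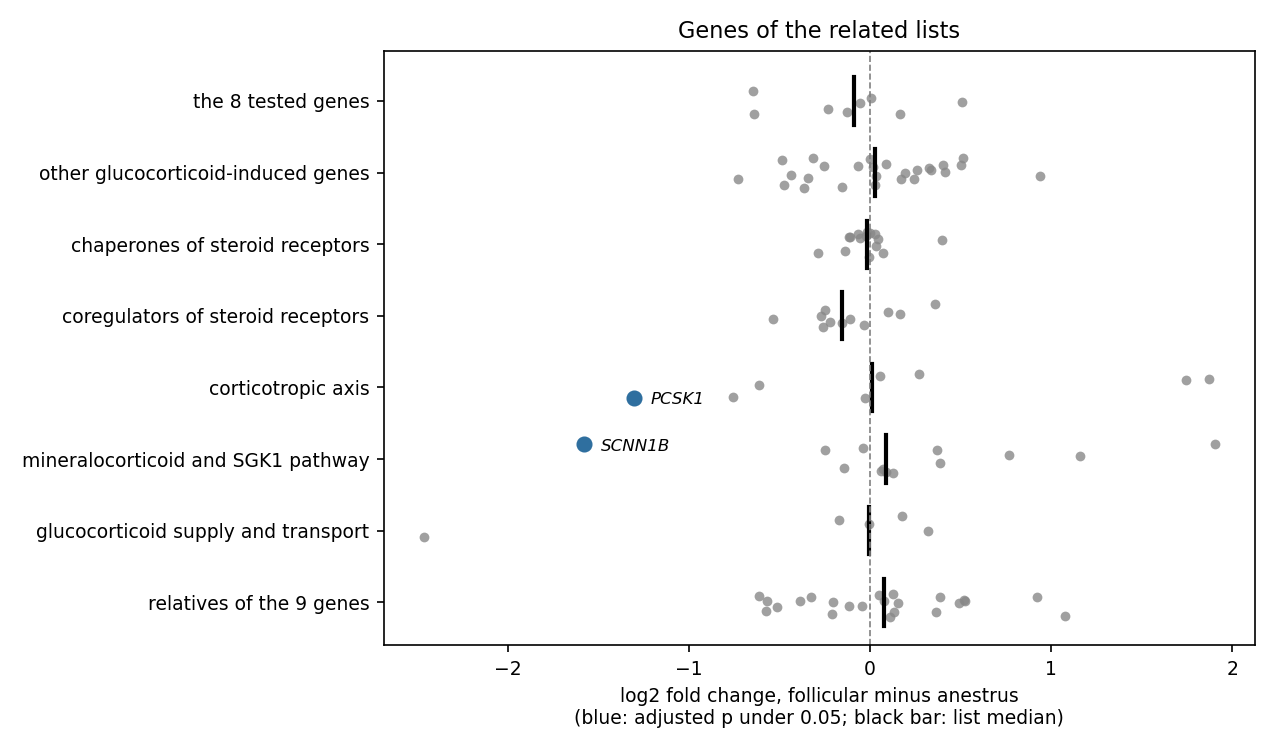
Log2 fold change, follicular minus anestrus, of each tested gene in the set and in the 7 related lists. Each point is a gene, black bars are list medians, and the 2 named genes, PCSK1 and SCNN1B, are the ones with an adjusted p under 0.05.

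Of 11 genes of glucocorticoid synthesis, metabolism and transport, 7 were matched and 5 tested. None passed in edgeR, and 1 of the 5, CYP11A1, had an unadjusted p under 0.05, beside 8.55% of all genes. CYP11A1, the enzyme of the first step of steroid synthesis, matched through a RefSeq synonym to a row with a provisional symbol, had 3 and 12 counts in the follicular pools, against 22 and 48 counts in the anestrus pools, with an adjusted p of 0.338 in edgeR. SRD5A1, a reductase of steroids, had 42.9 and 41.5 CPM in the follicular pools, against 39.9 and 27.8 CPM in the anestrus pools. SRD5A1 did not pass either, with an adjusted p of 0.773 in edgeR.

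Of 23 relatives of the 9 genes, none passed, 13 had a positive and 10 a negative log2 fold change, and the median was 0.08. At an unadjusted p under 0.05 in edgeR there were 4 of the 23, beside 8.55% of all genes. These were HSDL2, FKBP14, FKBP10 and the progesterone receptor gene PGR, the last pair named after their values were seen. FKBP14, an FKBP of the endoplasmic reticulum, had 37.5 and 45.6 CPM in the follicular pools, against 57.8 and 65.6 CPM in the anestrus pools, a log2 fold change of -0.57 ± 0.19 with an adjusted p of 0.398 in edgeR. HSDL2, a peroxisomal relative of the steroid dehydrogenases, had 44.0 and 56.9 CPM in the follicular pools, against 75.6 and 74.3 CPM in the anestrus pools, with an adjusted p of 0.375 in edgeR. TSC22D1, a relative of TSC22D3 named after its value was seen, had 658 and 696 CPM in the follicular pools, against 873 and 688 CPM in the anestrus pools, so that anestrus pool 1 alone was high, as for TSC22D3. In the 5 lists without a call in edgeR, DESeq2's Wald test and limma-voom also made 0 calls each.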

How the data were processed

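The authors deposited raw read counts per gene, whole numbers without normalization, for 4 libraries made with a Truseq stranded mRNA kit, per the labels' protocols. Per the submitters' processing notes, the tools were featureCounts 2.0.0, SAMtools 1.9, TopHat2 2.1.1 with Bowtie2 2.3.5.1, and bcl2fastq 2.20. The sources used here give neither genome build nor annotation nor strand setting, so no coordinates are printed. Sample titles and library names disagree on which anestrus pool is 1; pool numbers here follow the library names.

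Genes passing edgeR's filterByExpr (minimum count 10, minimum total 15) numbered 16756. After TMM scaling, edgeR 4.0.16 (R 4.3.3) tested them by its quasi-likelihood F test (robust, 2 residual degrees of freedom), with Benjamini-Hochberg adjustment over all genes and a threshold of 0.05. The test draws the spread of each gene towards a trend over all genes, which adds to those degrees of freedom. The standard error is the log2 fold change divided by the root of F, so it and the interval carry the same shared spread. Alternatives used DESeq2 1.42.0 and limma 3.58.1, other filters and scalings, a replicate block and each pool left out. Members and lists were chosen with earlier results of these data known. Of 197 list entries, 185 matched a symbol or RefSeq synonym. Genes named were the 9 members and, in each related list, the called genes and the 2 of smallest p. The 5 nearest patterns to FKBP5 with a mean of at least 5 CPM were also named, and others as stated. Marker lists did not follow this rule, so a marker left unnamed may have passed, as GFAP did (edgeR, adjusted p = 0.0316).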

Additional observations from a re-analysis of the deposited data

How the results depend on the processing

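The 8 members gave 0 calls in 10 of 13 alternatives, 1 with no filter on low counts (FKBP5), and from 0 to 2 when 1 pool was left out. Over all genes the count of 34 became 300 with no filter on low counts, 143 in DESeq2's Wald test, and 4 to 810 when 1 pool was left out. Genes of the related lists passing numbered 2, against 4 with no filter, 1 in limma-voom, 1 without robust estimation, and 0 to 11 when 1 pool was left out. The cause was not tested. Signs turned when 1 pool was left out for NR3C1 (log2 fold change from -0.0096, without anestrus pool 1, to 0.41), FKBP4 (from -0.18, without follicular pool 1, to 0.24, and -0.14 without anestrus pool 2), TSC22D3 (from -0.16 to 0.11, without anestrus pool 1) and ZBTB16 (from -0.33 to 0.18, without anestrus pool 1). FKBP5, HSD11B1, NR3C2 and SGK1 kept their direction in all 13 alternatives. The replicate block by library name gave 90 calls and by title 130, with 0 members in either. The labels do not say that a number pairs pools, and deviations of same-numbered pools correlated at 0.26 by library name and -0.26 by title. Scalings moved the median of all genes by under 0.1. Counts were low for HSD11B2, at 0 to 3 a library, for CYP11A1, at 3 to 48, for CRH, at 8 to 43, and for RAX, at 4 to 41.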
